A study of Homo sapiens
Mus musculus with 5 samples.

Results

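The human lung adenocarcinoma line H2030-BrM3, derived for growth in the brain, forms tumors with mouse stroma when grown in mice, and 10 mouse genes of macrophage polarization and scavenging were followed in that stroma. The genes were Arg1, Nos2, Marco, Msr1, Mrc1, Cd163, Chil3, Plac8, Pparg and Lgals3, taken from the mouse gene table by their symbols, and they are 10 of its 24628 genes. RNA sequencing libraries of whole tumors were compared, 3 from brain tumors and 2 from orthotopic lung tumors, all in athymic nu/nu mice. The lung tumors were seeded through the trachea, and the labels do not give the route for the brain tumors. All groups share the 1 cell line and a host that lacks a thymus and most T cells. Nothing in the labels tells whether each tumor was taken from its own mouse, so the p-values cover the spread among these 5 libraries, which may be technical.

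Macrophages take on different states with the signals they receive. Interferon gamma and bacterial products induce Nos2, whose product makes nitric oxide from arginine, and this state is called classical activation. Interleukins 4 and 13 act through Stat6 and induce Arg1, Mrc1 and Chil3, and this state is called alternative activation. Scavenger receptors such as Marco, Msr1 and Cd163 bind particles, modified lipoproteins or hemoglobin complexes. In the healthy lung, Marco, Chil3 and Pparg are known from alveolar macrophages, while Mrc1 and Cd163 are known in the brain from macrophages at its borders rather than from microglia.

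The mouse reads behind the values, recovered from the deposited values, numbered 2710617 to 8634688 in the brain tumors, 231044 in lung tumor 1 and 5293736 in lung tumor 2. Lung tumor 1 therefore stands apart in depth, with no read for 11897 mouse genes (3756 to 6122 elsewhere), and its reads were 96.6% human against 41.4% in lung tumor 2. The labelled tissues were checked against marker lists. All 14 neuron and glia markers rose in the brain tumors, and their summed level was 8133 to 10090 RPKM there and 138.1 to 148.2 RPKM in the lung tumors. RPKM are reads scaled to gene length and to the reads of the library. The 14 lung epithelial markers summed to 67362 RPKM in lung tumor 2, to 1031 RPKM in lung tumor 1 and to 61.5 to 129.6 RPKM in the brain tumors. Of the defining lung markers, Sftpd was at 0 in lung tumor 1 and Sftpc, the surfactant protein C gene, was at 152.0 RPKM there against 14030.4 RPKM in lung tumor 2. The cause of this difference between the lung tumors was not tested, and each result below is given for the 2 lung tumors apart.

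By RPKM, which are relative to the mouse reads of a library, all 10 genes were higher in both lung tumors than in each brain tumor, with no overlap between the groups, and 9 of them fell in the brain tumors by limma on log2(RPKM + 1) at an adjusted p under 0.05. Over all 15431 genes tested, 22.4% passed in either direction, 8.12% fell in the brain tumors and 26.2% lay below both lung tumors in each brain tumor. Cd163 was the gene that did not pass. The median log2 difference, brain minus lung, was -4.19 over the 10 genes and 0.08 over all genes tested. All 10 had at least 1 RPKM in at least 2 libraries and so were tested, but Arg1, Marco and Plac8 met that filter through the lung tumors and 7 would have met it in the brain tumors alone, so the count is a description of these genes. In bulk tumors fewer macrophages and less RNA per macrophage cannot be told apart. Counted per 1000000 human reads instead, a scale added after the data were seen, fewer genes were apart. Arg1, Nos2, Marco, Chil3 and Plac8, 5 of the 10, lay below both lung tumors in each brain tumor, against 1.32% of all genes tested. For Chil3 and Nos2 the margin was small and rests on few reads, and no intervals were computed on that scale. Chil3 had 1.54 in brain tumor 1 on 13 reads and 1.83 in lung tumor 1 on 12 reads. Nos2 had 2.45 in brain tumor 3 on 6 reads and 2.91 in lung tumor 1 on 19 reads. On that scale lung tumor 1 overlapped the brain tumors for Msr1, Mrc1, Cd163 and Lgals3, and for Pparg it was the lowest library.

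**Figure D1:**
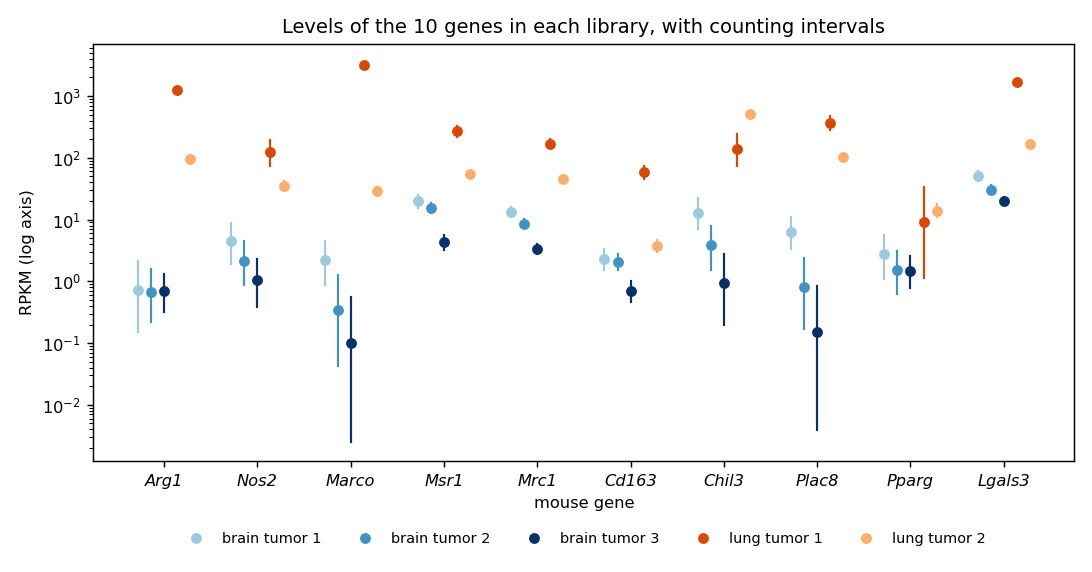
RPKM of the 10 mouse genes in each library on a log axis, with points for the 3 brain tumors (blue) and 2 lung tumors (orange) and bars for 95% exact Poisson intervals of the recovered reads. The lung points lie above every brain point in all 10 genes, lung tumor 1 is highest in 8 of them, and Chil3 and Pparg are highest in lung tumor 2.

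The calls depended on single libraries to different degrees. Arg1 and Plac8 passed without any 1 of the brain tumors. Both met the filter on low values only through the lung tumors, so this is a description of these genes. Without lung tumor 1, whose mouse depth was lowest, 7 genes passed and Mrc1, Msr1 and Cd163 did not (13.7% of all genes tested fell). Without brain tumor 1, 2 or 3, the genes that passed numbered 4, 2 and 3, while 2.57%, 1.19% and 1.59% of all genes tested fell. Chil3 failed in this set only without brain tumor 2, and Nos2 without brain tumor 2 or 3. Marco, Msr1, Mrc1, Pparg and Lgals3 failed without any 1 of the brain tumors. Without lung tumor 2 all 10 passed, in a fit that called 8275 of all 15431 genes and in which 20.3% fell.

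The arginine enzymes come first. Arg1 encodes arginase 1, which splits arginine into ornithine and urea. Its level was 0.733, 0.674 and 0.691 RPKM in brain tumors 1, 2 and 3, 1271 RPKM in lung tumor 1 and 93.8 RPKM in lung tumor 2. The brain values were near the limit of detection, on 3, 5 and 9 reads, while the lung tumors gave 445 and 749 reads. The brain counting intervals reach from 0.151 to 2.14 RPKM, so how alike the brain tumors were is not resolved. Arg1 fell by 7.68 on the log2 scale in the brain tumors (SE 1.05, limma adjusted p = 0.00597). By RPKM lung tumor 1 was the highest library, and lung tumor 2 also lay far above the counting intervals of the brain tumors.

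Nos2 encodes the inducible nitric oxide synthase. It had 4.45, 2.15 and 1.05 RPKM in the brain tumors, 123.6 RPKM in lung tumor 1 and 34.8 RPKM in lung tumor 2. The brain values rested on 8, 7 and 6 reads, and their counting intervals overlap, so their order is not resolved. Nos2 fell by 4.35 in the brain tumors (SE 0.70, limma adjusted p = 0.0101). Both arginine-consuming enzymes were thus higher in the lung tumors, Arg1 by the larger difference.

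The ratio of Arg1 to Nos2 RPKM was 0.165, 0.314 and 0.659 in the brain tumors, 10.3 (95% interval 6.51 to 17.2) in lung tumor 1 and 2.70 (2.22 to 3.29) in lung tumor 2. The lengths behind RPKM are defined in an unknown way, so the ratio itself has no fixed scale and only its change between libraries can be read. The 3 brain tumors lay below both lung tumors, and the intervals of the lung tumors did not overlap. The upper bound in brain tumor 3, 2.25, overlaps the interval of lung tumor 2.

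Of 15 genes of arginine metabolism 14 were tested, and apart from Arg1 and Nos2 another 2 fell and 2 rose in the brain tumors (14.3% of all genes tested rose). Arg2, the mitochondrial arginase, had 3.28, 4.18 and 1.43 RPKM in the brain tumors, against 20.7 RPKM in lung tumor 1 and 14.0 RPKM in lung tumor 2, and fell by 2.25 (adjusted p = 0.0265). Ddah2, which breaks down an inhibitor of nitric oxide synthases, also fell. Nos1, the neuronal nitric oxide synthase, had 17.0 to 24.8 RPKM in the brain tumors against 0.961 and 0 RPKM in the lung tumors and rose by 4.03 (adjusted p = 0.00378). Ddah1 rose by 2.56 (adjusted p = 0.00613). Gatm, which uses arginine for creatine synthesis, had 53.5 to 320.6 RPKM in the brain tumors, against 248.6 RPKM in lung tumor 1 and 141.7 RPKM in lung tumor 2, which overlap. Between the lung tumors the list was uneven, since Arg2 was 1.48 times as high in lung tumor 1 and Arg1 13.5 times.

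Among the scavenger receptors Marco had the widest spread between libraries. It encodes a class A scavenger receptor of macrophages that binds bacteria and particles. Marco had 2.20, 0.347 and 0.0988 RPKM in the brain tumors on 7, 2 and 1 reads, 3210.3 RPKM in lung tumor 1 on 874 reads, and 29.2 RPKM in lung tumor 2 on 181 reads. Marco alone took 0.378% (95% interval 0.354 to 0.404) of the mouse reads of lung tumor 1. The gene fell by 7.53 in the brain tumors (SE 1.87, limma adjusted p = 0.0376). Its SE was the largest among the 10 genes, and the 2 lung tumors differed 110.1-fold.

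Msr1, the class A receptor of modified lipoproteins, had 19.7, 15.4 and 4.30 RPKM in the brain tumors, 269.4 RPKM in lung tumor 1 and 54.0 RPKM in lung tumor 2. Brain tumors 1 and 2 were close and brain tumor 3 was lowest. Msr1 fell by 3.33 (SE 0.87, adjusted p = 0.0443). Mrc1, the mannose receptor that takes up glycoproteins, had 13.3, 8.61 and 3.35 RPKM in the brain tumors, against 168.8 RPKM in lung tumor 1 and 45.4 RPKM in lung tumor 2. It fell by 3.40 (SE 0.74, adjusted p = 0.0259). These genes were carried by 54 to 161 reads in each brain tumor, so unlike Arg1 and Marco they were well above the limit of detection there.

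Cd163, the receptor for complexes of hemoglobin and haptoglobin, had 2.29, 2.08 and 0.695 RPKM in the brain tumors, 58.4 RPKM in lung tumor 1 and 3.74 RPKM in lung tumor 2. Lung tumor 2 was 1.63 times the highest brain tumor, and lung tumor 1 was 25.5 times it. The log2 difference was -2.70 (SE 1.08) with an adjusted p of 0.124, which does not pass. Without lung tumor 2 it passed, and over the alternatives its adjusted p ran from 0.00331 to 0.875. By RPKM, Cd163 was thus set apart in lung tumor 1 and near the brain range in lung tumor 2. Counted per 1000000 human reads, Cd163 had 3.33, 7.20 and 11.0 reads in the brain tumors. The lung tumors had 9.33 (lung tumor 1) and 23.8 (lung tumor 2) on that scale. There lung tumor 1 lay within the brain range and lung tumor 2 above it.

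Of 24 scavenger receptors and related uptake genes, all tested, 10 fell and 1 rose in the brain tumors. Without the genes already described, 7 of 20 fell. The members that fell with the largest differences were Marco, then Ager at -6.17 and Cd36 at -5.89, and Olr1. Ager, the receptor for advanced glycation end products, is also known as an alveolar epithelial gene, and it had 1198 RPKM in lung tumor 2 and 28.9 RPKM in lung tumor 1. Cd36, a receptor for long-chain fatty acids and lipoproteins, had 0.631 to 2.94 RPKM in the brain tumors, against 42.3 RPKM in lung tumor 1 and 490.1 RPKM in lung tumor 2, an order opposite to that of Marco. Olr1, a receptor of oxidized lipoproteins, was listed at 0 in all brain tumors and had 27.0 and 62.4 RPKM in lung tumors 1 and 2. Megf10, an engulfment receptor known from astrocytes, rose by 2.67 in the brain tumors (adjusted p = 0.0130). Lrp1, a large receptor of lipoproteins and proteases, had 1058 to 1213 RPKM in the brain tumors, against 1206 RPKM in lung tumor 1 and 1200.3 RPKM in lung tumor 2, with a difference of -0.12 (SE 0.34).

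Chil3, also called Ym1, encodes a secreted chitinase-like protein of alternatively activated and alveolar macrophages and of some monocytes. It had 12.98, 3.86 and 0.942 RPKM in the brain tumors on 13, 7 and 3 reads, 140.1 RPKM in lung tumor 1 on 12 reads and 506.0 RPKM in lung tumor 2 on 988 reads. Chil3 fell by 5.72 in the brain tumors (SE 0.95, limma adjusted p = 0.0111). Its order ran against most of the 10 genes, with lung tumor 2 above lung tumor 1 by 3.61 times (95% interval 2.06 to 7.01). Chil4, a near-identical copy, was not analysed here, and how reads common to both were counted is not given in the sources used here, so the level of Chil3 is uncertain to that extent.

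Plac8 encodes a small cysteine-rich protein known from monocytes and several other immune cells. It had 6.32, 0.806 and 0.153 RPKM in the brain tumors on 13, 3 and 1 reads, and 369.7 and 102.5 RPKM in lung tumors 1 and 2. It fell by 6.30 (SE 0.94, adjusted p = 0.00810). Brain tumor 1 stood above the others in Plac8, and its counting interval, 3.37 to 10.8 RPKM, does not overlap those of brain tumors 2 and 3.

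Of the 24 alternative activation genes 18 were tested. Without the 6 described here, 6 of 12 fell in the brain tumors. Retnla, a secreted protein induced by interleukin 4, had at most 0.999 RPKM in the brain tumors, against 28.2 RPKM in lung tumor 1 and 273.0 RPKM in lung tumor 2, and fell by 6.07 (adjusted p = 0.0100). Like Chil3 it was higher in lung tumor 2. Ccl24, an eosinophil chemokine, was higher in lung tumor 1 (45.4 against 5.58 RPKM) and fell by 3.82 in the brain tumors (adjusted p = 0.0263). Vegfa, which many cell types express, fell by 2.95 (adjusted p = 0.0119).

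Of the 24 classical activation genes 17 were tested, and without Nos2 another 3 of 16 fell in the brain tumors. Il1b, the interleukin 1 beta gene, fell by 4.57 (adjusted p = 0.0199) and Fpr2, a formyl peptide receptor gene, fell by 3.39 (adjusted p = 0.0151). Socs3, an inhibitor of cytokine signalling, fell by 1.90 (adjusted p = 0.0117). Il1b had 8.37, 0.867 and 0.494 RPKM in the brain tumors, against 42.8 RPKM in lung tumor 1 and 111.6 RPKM in lung tumor 2. Between the lung tumors 12 of these 16 genes were over 1 lower on the log2 scale in lung tumor 1 (31.6% of all genes tested). Among them Cd40, Cxcl9, Gbp5, Cxcl10 and Il12a were at 0 in lung tumor 1. Nos2 was higher in lung tumor 1. In that library 12 of the 24 genes were listed at 0, and its low depth allows little to be said of them. All called genes of both activation lists fell in the brain tumors, 11 of 18 and 4 of 17 with the genes described here included.

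The monocyte list, without Chil3 and Plac8, had 8 of 18 genes that fell in the brain tumors. Ccr2, the chemokine receptor that marks inflammatory monocytes, had 3.98, 0.611 and 0.139 RPKM in the brain tumors, against 20.7 RPKM in lung tumor 1 and 24.7 RPKM in lung tumor 2, and fell by 3.50 (adjusted p = 0.0199). Hp, the haptoglobin gene, fell by 7.27 (adjusted p = 0.00177), and Lyz2, a lysozyme gene of myeloid cells, fell by 4.51 (adjusted p = 0.0280). Hp and Fn1 are also made outside monocytes. Among the other chitinase family genes, none of 4 passed by limma and 0 had an unadjusted p under 0.05. Chil1, a chitinase-like gene, had 11.4 to 36.6 RPKM in the brain tumors, 15.1 RPKM in lung tumor 1 and 895.3 RPKM in lung tumor 2.

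Pparg encodes a nuclear receptor for fatty acids that alveolar macrophages need for their development. Its levels were low throughout, at 2.76, 1.52 and 1.49 RPKM in the brain tumors, 9.21 RPKM in lung tumor 1 and 13.9 RPKM in lung tumor 2. Pparg fell by 2.11 in the brain tumors (SE 0.44, limma adjusted p = 0.0226). The value of lung tumor 1 rests on 2 reads, with a 95% interval of 1.12 to 33.3 RPKM that reaches below brain tumor 1. The absence of overlap for Pparg is therefore within counting error for that library.

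Of 11 known PPARg target genes tested, 4 fell in the brain tumors (8.12% of all genes tested). Besides Cd36, Plin2, which coats lipid droplets, fell by 4.10 (adjusted p = 0.0281). Lpl, the lipoprotein lipase gene, fell by 2.39 (adjusted p = 0.0116) and Angptl4, an inhibitor of that lipase, fell by 2.38 (adjusted p = 0.0110). Between the lung tumors the targets were split, with 3 over 1 higher and 4 over 1 lower on the log2 scale in lung tumor 1. Over all genes tested, 15.5% were over 1 higher and 31.6% over 1 lower. Plin2 was higher in lung tumor 1 (1109.7 against 247.8 RPKM) and Cd36 lower.

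Lgals3 encodes galectin-3, a lectin that binds beta-galactosides and is abundant in activated macrophages and in many epithelia. It had 51.2, 30.5 and 20.3 RPKM in the brain tumors, 1700.3 RPKM in lung tumor 1 and 169.2 RPKM in lung tumor 2. All libraries gave at least 142 reads, so Lgals3 was well measured in each. It fell by 4.04 in the brain tumors (SE 0.98, limma adjusted p = 0.0352). Without Lgals3, 4 of 7 tested galectin genes fell, and of these Lgals1, galectin-1, fell by 4.27 (adjusted p = 0.0290) and Lgals9, galectin-9, fell by 2.27 (adjusted p = 0.0386). Lgals7 also fell, but on 1 and 4 reads in the lung tumors.

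Of 24 receptors and transcription factors of polarization tested, 9 fell in the brain tumors (8.12% of all genes) and 20 lay below both lung tumors in each brain tumor (26.2% of all genes). Csf1r and Hif1a had differences of 0.40 and 0.49, and neither passed. Cebpb, which takes part in the induction of Arg1, had 18.0, 15.6 and 15.2 RPKM in the brain tumors, against 333.5 RPKM in lung tumor 1 and 123.5 RPKM in lung tumor 2, and fell by 3.57 (adjusted p = 0.00526). Il4ra, the receptor chain for interleukins 4 and 13, had 34.4, 28.0 and 17.4 RPKM in the brain tumors, against 412.4 RPKM in lung tumor 1 and 203.9 RPKM in lung tumor 2, and fell by 3.45 (adjusted p = 0.00530). Spi1, the PU.1 gene of myeloid cells, fell by 2.84 (adjusted p = 0.0345) and Egr2, which interleukin 4 induces, fell by 3.00 (adjusted p = 0.0381). Stat3, which interleukins 6 and 10 activate, had a difference of -0.31 (SE 0.35). Of 5 ligand genes tested, Tgfb1 fell by 2.51 (adjusted p = 0.0384) and Tgfb2 fell by 1.08 (adjusted p = 0.0490).

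The lung tumors were then set against each other, a comparison of single libraries with no replicate check. In lung tumor 1, 8 of the 10 genes were over 1 higher on the log2 scale than in lung tumor 2, and Chil3 was over 1 lower. Over all genes tested, 15.5% were over 1 higher and 31.6% over 1 lower in lung tumor 1. Of 10 pan-macrophage genes, 7 were over 1 higher there and 1 over 1 lower, with a median difference of 1.56. The median difference was 2.08 over the 10 genes and -0.30 over all genes, and the longest 20% of genes had a median of -0.70 against 0 for the shortest 20%. The part of gene length in the differences of the 10 genes was not tested. These values are relative to the mouse reads of each library, which were few in lung tumor 1. Per 1000000 human reads, Marco alone was higher in lung tumor 1, at 133.6 against 48.5 reads, and the other 9 genes were higher in lung tumor 2. Arg1 had 68.0 against 200.6 reads on that scale, Lgals3 61.6 against 244.8, Mrc1 22.8 against 244.6 and Cd163 9.33 against 23.8. Of all genes tested, 0.817% were higher in lung tumor 1 per 1000000 human reads and 36.8% by RPKM.

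The largest ratio was that of Marco, at 110.1 (95% interval 93.7 to 129.9), which ranked 8 among the 15431 genes by its log2 difference. Cd163 was 15.6 times as high in lung tumor 1 (11.1 to 21.9), Arg1 13.5 times (12.02 to 15.3) and Lgals3 10.1 times (8.92 to 11.3). The interval of Cd163 overlaps those of Arg1 and Lgals3, while that of Lgals3 lies below that of Arg1. Msr1 was 4.99 times as high (3.93 to 6.27), Mrc1 3.72 times (3.11 to 4.43), Plac8 3.61 times (2.73 to 4.69) and Nos2 3.55 times (2.07 to 5.79). The intervals of these 4 overlap. Pparg had a ratio of 0.661 (0.0785 to 2.48), which is not distinguishable from equality at this depth. Chil3 had a ratio of 0.277 (0.143 to 0.486). These intervals cover counting error only, since reads copied during library preparation are not independent molecules.

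**Figure D2:**
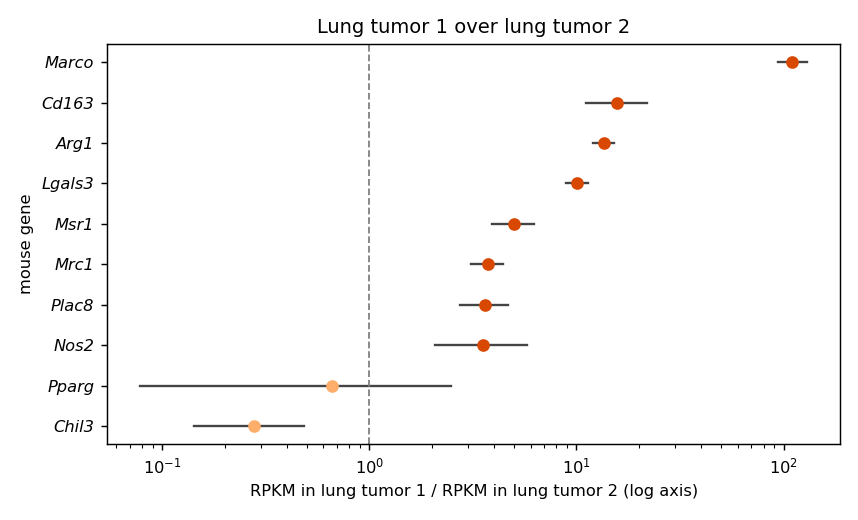
Ratio of RPKM in lung tumor 1 to lung tumor 2 for each of the 10 genes on a log axis, with bars for 95% exact conditional binomial intervals of the recovered reads and a dashed line at equality. Marco lies at 110.1, 7 further genes lie above 1, the interval of Pparg spans 1 and that of Chil3 lies below it.

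The alveolar macrophage list was not uniform between the lung tumors. Without Marco, Mrc1, Chil3 and Pparg, 4 of its 14 tested genes were over 1 higher and 7 over 1 lower in lung tumor 1. In that library 8 of the 24 listed genes were at 0, among them the defining genes Siglecf, Itgax, Ear1 and Ear2. Itgax, the CD11c gene, had 103.4 RPKM in lung tumor 2 and was at least 7.19-fold lower in lung tumor 1, taking 3 reads in that library as the limit. Siglecf had 6.35 RPKM in lung tumor 2, and 3 reads in lung tumor 1 would be 5.43 RPKM, so its 0 there says little. Ear1 and Ear2 were above 0 in lung tumor 2 alone, at 11.7 and 80.2 RPKM. Their reads are therefore not fixed, and no limit can be given for their 0 in lung tumor 1. Fabp4, a fatty acid binding protein of alveolar macrophages, adipocytes and endothelium, had 225.3 RPKM in lung tumor 1 and 4.98 RPKM in lung tumor 2. Krt19 was near equal, at 0.925 times its level in lung tumor 2. Csf2rb was 1.55 times as high in lung tumor 1, on 38 reads there.

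The border-associated macrophage list had 10 of 13 tested genes over 1 higher in lung tumor 1 and 1 lower, and 8 and 1 of 11 without Mrc1 and Cd163. Pf4, platelet factor 4, which is also abundant in megakaryocytes, had 1.65 to 14.9 RPKM in the brain tumors, 3743 RPKM in lung tumor 1 and 43.6 RPKM in lung tumor 2. Lyve1, a hyaluronan receptor, had 118.6 and 45.6 RPKM in lung tumors 1 and 2 and fell by 4.85 in the brain tumors (limma adjusted p = 0.00319). Cbr2, which airway epithelium also expresses, ran the other way, with 887.0 and 4076 RPKM. Of the lipid-laden macrophage list, 13 of 17 genes other than Lgals3 were over 1 higher in lung tumor 1. Ctsd, a lysosomal protease gene, had 2882 against 328.8 RPKM, and Apoe, the apolipoprotein E gene, 15106 against 1638 RPKM. In the brain tumors Apoe had 4948 to 9106 RPKM, between the lung tumors, and Ctsd had 261.0 to 677.2 RPKM, a range that holds lung tumor 2.

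**Figure D3:**
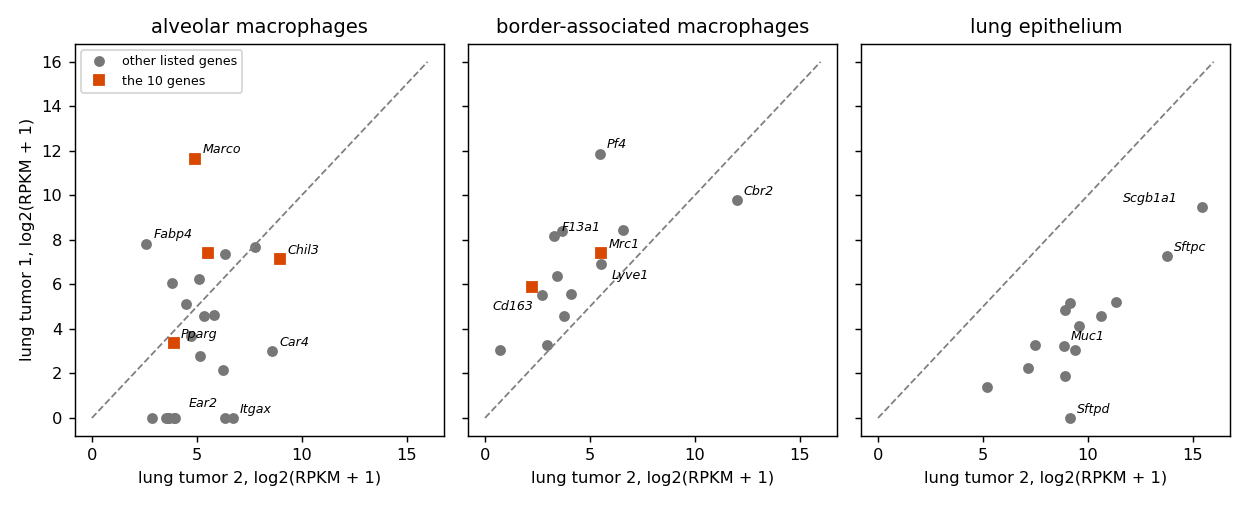
Log2(RPKM + 1) in lung tumor 1 (vertical) against lung tumor 2 (horizontal) for the listed genes of alveolar macrophages, border-associated macrophages and lung epithelium, 1 point per gene, with squares for the 10 genes and a dashed line at equality. The lung epithelial genes lie below the line, most border-associated genes lie above it, and the alveolar genes lie on both sides, with 8 at 0 in lung tumor 1.

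Other cells that could hold these transcripts also differed between the lung tumors. The neutrophil list summed to 1206 and 696.3 RPKM in lung tumors 1 and 2 and to 48.7 to 186.8 RPKM in the brain tumors, and 7 of its 12 tested genes fell in the brain tumors. S100a8, a calcium-binding neutrophil protein gene, fell by 5.54 (limma adjusted p = 0.00132). Of the defining neutrophil genes Ly6g, Camp, Elane and Cxcr1 were at 0 in lung tumor 1 and had at most 2.58 RPKM in the other libraries, and 3 reads of Camp in lung tumor 1 would be 16.7 RPKM, so these zeros say little. The fibroblast and mural list summed to 17369 and 9768 RPKM in lung tumors 1 and 2 and to 265.5 to 1054 RPKM in the brain tumors, with 6 of 10 genes lower in the brain tumors. The dendritic cell list summed to 549.9 and 3954 RPKM in lung tumors 1 and 2 and to 36.2 to 265.4 RPKM in the brain tumors. Cd74, the invariant chain gene, fell by 5.41 (adjusted p = 0.0460). Most of both lung sums came from Cd74, at 291.4 and 1768 RPKM, and from H2-Aa, H2-Ab1 and H2-Eb1. Clec9a, Xcr1, Flt3, Batf3, Cd209a and Ccr7 were at 0 in lung tumor 1 and had at most 9.38 RPKM in lung tumor 2. The sums are therefore not a measure of dendritic cells alone. The endothelial list summed to 355.8 and 2330.4 RPKM in lung tumors 1 and 2 and to 254.9 to 473.1 RPKM in the brain tumors. The lymphocyte list, which includes the immunoglobulin gene Igkc, summed to 623.3 and 1105 RPKM in the lung tumors and to 1.22 to 12.9 RPKM in the brain tumors. The part of these cells in the levels of the 10 genes was not tested.

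Fewer genes were tested for the rarer cells. Alox15, a lipoxygenase of the eosinophil list, fell by 4.68 in the brain tumors (limma adjusted p = 0.00594), with 14.8 and 57.0 RPKM in lung tumors 1 and 2. Of 4 adipocyte genes tested, Cfd fell by 3.68 (adjusted p = 0.00549), and the list summed to 256.0 and 19.4 RPKM in lung tumors 1 and 2, of which Fabp4 made up 225.3 RPKM in lung tumor 1. The liver gene Alb had 522.1 and 8.94 RPKM in lung tumors 1 and 2 and 3.61 to 5.44 RPKM in the brain tumors, with an adjusted p of 0.133. Arg1 is also a liver enzyme, and the liver list summed to 576.5 RPKM in lung tumor 1 and 9.99 RPKM in lung tumor 2. The part of liver transcripts in the level of Arg1 was not tested.

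Among the brain tumors the 10 genes showed a common order. In 9 of 10, all but Arg1, the level was highest in brain tumor 1, then brain tumor 2, then brain tumor 3, an order that 28.7% of all genes tested showed. Much of the order is within counting error. The counting intervals of brain tumors 1 and 2 were apart for Mrc1, Plac8 and Lgals3, and those of brain tumors 2 and 3 for Msr1, Mrc1, Cd163 and Lgals3. Between brain tumors 1 and 3 they were apart for 7 of the 9, all but Nos2 and Pparg. Brain tumor 3 also had the lowest mean log2(RPKM + 1) of 10 pan-macrophage genes, 4.07, against 5.84 and 5.58 in brain tumors 1 and 2. These replicates have no order of their own, and the share of human reads fell along the same libraries, at 75.6%, 56.5% and 22.1%. The microglia list summed to 1985, 1909 and 559.5 RPKM in brain tumors 1, 2 and 3, most of it from C1qa, C1qb and C1qc. The same list summed to 7461 RPKM in lung tumor 1 and 974.8 RPKM in lung tumor 2, so it does not measure microglia alone. The part of the human share or of the microglia list in the order was not tested.

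The pan-macrophage genes had a median log2 difference, brain minus lung, of -1.87, against -4.19 for the 10 genes. Their mean log2 level was 7.48 in lung tumor 1 and 6.16 in lung tumor 2, above all brain tumors. Of the 10 pan-macrophage genes only Spi1 fell in the brain tumors, and 7 lay below both lung tumors in each brain tumor. An unadjusted p under 0.05 was reached by 4 of them. That share was not computed over all genes, so the count cannot be set against a background. Tyrobp, a signalling adaptor of myeloid receptors, had 51.2 to 196.2 RPKM in the brain tumors, against 755.0 RPKM in lung tumor 1 and 194.5 RPKM in lung tumor 2. Of the 16 microglia genes 2 rose in the brain tumors and 1 fell. Sall1, a transcription factor of microglia, rose by 2.69 (limma adjusted p = 0.0416), and Olfml3 fell by 3.28 (adjusted p = 0.0219). C1qa, a complement gene that many tissue macrophages express, had 151.3 to 510.7 RPKM in the brain tumors, 2889.7 RPKM in lung tumor 1 and 236.1 RPKM in lung tumor 2.

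Each gene was next expressed relative to the pan-macrophage mean of its library. On that scale 8 of the 10 genes still lay below both lung tumors in each brain tumor, and Cd163 and Pparg did not. Over all genes tested 2.94% did so, and the median difference of all genes on this scale was 1.73. The log2 difference, brain minus lung, became -6.02 for Arg1, -5.88 for Marco, -4.65 for Plac8, -4.06 for Chil3, -2.69 for Nos2, -2.38 for Lgals3, -1.74 for Mrc1 and -1.67 for Msr1. It was -1.05 for Cd163 and -0.45 for Pparg. The fit on this scale put 4 genes (Arg1, Marco, Plac8 and Chil3) past the threshold, where 0.648% of all genes passed in that direction. Its p-values are not read as calls, because the offset that each library shares enters every gene alike and the fit took the spread as known, with 46293 degrees of freedom. With the pan-macrophage mean as a covariate instead, a setting chosen after the data were seen, limma called 0 of the 10 genes. Of the 10, 6 had an unadjusted p under 0.05. That share was not computed over all genes, so the count cannot be set against a background. All 10 differences were negative, and the median difference over all genes was -0.0069. That fit called 286 of all genes, 0.110% of those tested in the lower direction. Differences were -6.15 for Arg1, -4.94 for Chil3, -4.29 for Plac8, -4.09 for Marco and -2.08 for Pparg, and between -2.88 and -0.60 for the others.

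**Figure D4:**
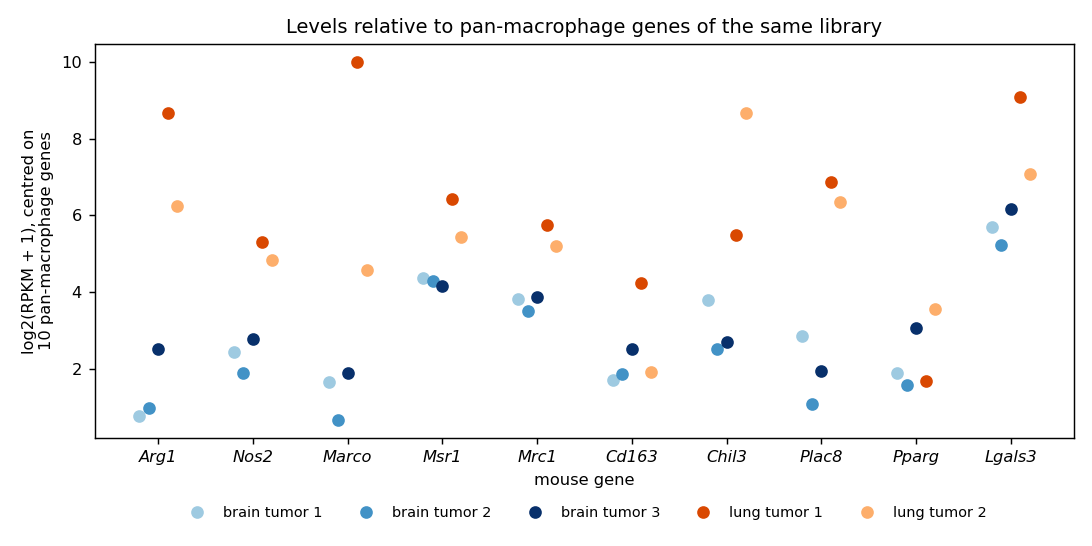
Log2(RPKM + 1) of the 10 genes after each library was centred on the mean of 10 pan-macrophage genes and the mean over libraries was added back, with points for the 3 brain tumors (blue) and 2 lung tumors (orange). The brain points lie below both lung points in 8 genes, and in Cd163 and Pparg the groups overlap.

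Human genes of the same names were looked up in the human table, where the cancer cells' transcripts are listed, since reads could be assigned to the wrong species. MARCO had 0 to 6 human reads and NOS2 0 to 2 in each library, against 874 and 19 mouse reads in lung tumor 1. ARG1, MSR1 and CHIL3 were not analysed here. LGALS3 had 13 human reads in lung tumor 1 and 38 in lung tumor 2, against 403 and 914 mouse reads. PLAC8 had 362 human reads in lung tumor 1 against 65 mouse reads, and 106 against 411 in lung tumor 2. In brain tumors 1, 2 and 3 it had 159, 86 and 32 human reads, against 13, 3 and 1 mouse reads. PPARG had 49 human reads against 2 mouse reads in lung tumor 1, and 42 against 69 in lung tumor 2. In brain tumors 1, 2 and 3 it had 30, 43 and 1 human reads, against 7, 7 and 12 mouse reads. Whether mouse reads of Plac8 and Pparg came from the human genes was not tested.

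For each of the 10 genes the 2 tested genes with the most similar profile over the 5 libraries are given as a description, by the root mean square distance of centred log2(RPKM + 1) among genes with a mean of at least 5 RPKM. Arg1 was closest to Saa3, an acute phase gene (distance 0.40), and Hba-a2, a hemoglobin gene (0.53). Nos2 was closest to Acta2, the smooth muscle actin gene (0.13), and Loxl2 (0.20). Marco was closest to Pf4 (0.72) and Fcna, the ficolin A gene (0.91), the largest distances of the 10 genes. Msr1 was closest to Cmtm7 (0.15) and Cyba, a subunit of the phagocyte oxidase (0.18), and Mrc1 to Lrg1 (0.12) and Itga5 (0.15). Chil3 was closest to the complement gene C3 (0.33) and Cd74 (0.64), both highest in lung tumor 2.

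Plac8 was closest to Anxa1 (0.27) and Col1a1 (0.36), and Lgals3 to Lgals1 (0.16) and Slc16a3 (0.23). Cd163 was closest to 2 ribosomal protein genes or pseudogenes, Rps26 (0.093) and Rps19-ps4 (0.16). Pparg was closest to Tapbp (0.079) and Tmem109 (0.080). Genes of macrophages, fibroblasts, smooth muscle and blood all appear among these neighbours. Each profile rests on the same 5 libraries and on their depths.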

How the data were processed

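RNA was sequenced from 3 brain and 2 lung tumors, and the authors deposited RPKM for human (hg38, GRCh38) and mouse (mm10, GRCm38) genes, with the builds per the submitters' processing notes. Not given in the sources used here are the aligner, the counting tool, strand use, gene lengths and how a read was placed in either species. Columns were joined to samples by library numbers, and 0 were left unmapped. Whole reads were recovered from the RPKM by 1 factor per library. All 20633 mouse genes above 0 in at least 2 libraries came out whole within 2.91e-10 reads, totals are lower bounds, and 3995 genes seen in 1 library have no fixed number. Lengths differ in unknown ways, so levels are compared between libraries, not between genes.

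Genes with RPKM of at least 1 in at least 2 libraries were fitted as log2(RPKM + 1) with limma 3.58.1 in R 4.3.3 (eBayes with trend, two-sided, Benjamini-Hochberg over 15431 genes, called at an adjusted p under 0.05, 5.90 degrees of freedom). An exact permutation of 3 against 2 cannot go below 0.2. Reads have exact Poisson intervals, their ratios conditional binomial (Clopper-Pearson) intervals, both 95% and of counting error only, and a gene at 0 is given a limit of 3 reads. The 10 genes, the lists and the tests were chosen with earlier results of these data known.

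Genes named besides the 10 are, for each list, up to 4 called genes with the largest difference and the 2 of highest mean RPKM, and the 2 nearest profiles of each of the 10. Arg2, Ddah2, Megf10, Ccr2, Itgax, Ear1, Ear2, Sftpd, Csf2rb, Csf1r, Hif1a and neutrophil genes at 0 fall outside that rule and were named after their values were seen. Where a symbol stands for more than 1 gene, the row of higher mean was kept. Alternatives were pseudocounts, filters, scalings, eBayes without trend, voom on recovered reads, a replicate block, leaving out each library, a 4-fold limit, other macrophage scalings, and reads per 1000000 human reads. Promoter and protein sequences were planned and not used here.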

Additional observations from a re-analysis of the deposited data

How the results depend on the processing

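The brain minus lung difference of each of the 10 genes kept its direction under the alternatives fitted. The genes of the other lists were not refitted one by one. Of the 10 genes 9 passed in the brain against lung comparison (8.12% of all genes tested fell). With no filter on low values 5 passed, where 24628 genes were adjusted for and 2.76% of them fell. Leaving out each library gave 2 to 10 genes, the lowest without brain tumor 2, and those fits have fewer samples. With the pan-macrophage mean as a covariate, chosen after seeing the data, 0 passed by limma. An unadjusted p under 0.05 was reached by 6. That share was not computed over all genes, so the count cannot be set against a background. Pseudocounts of 0.1 and 0.5 gave 8 and 9 genes, where 6.61% and 7.79% of all genes tested fell. A filter at 5 RPKM gave 9 (9.93% fell, and Cd163 was not tested). Median-ratio scaling, quantile scaling and eBayes without trend gave 9 each, where 7.25%, 11.8% and 8.08% fell. Voom on recovered reads gave 8, where 13.5% fell. Arg1 and Plac8 were among the genes that passed with each pseudocount, filter and scaling and with voom, but not with the covariate. Both met the filter on low values only through the lung tumors, so this is a description of these genes.

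The labels pair no brain with a lung tumor. Same-numbered libraries had correlations of deviations of 0.035 and 0.050, and a fit with a replicate block called 7 of the 10 genes, and 1484 of all genes against 3457. Other counts of all genes were 2295 with no filter, 286 with the covariate and 1195 to 8275 when leaving out each library. Called genes were lower in the brain tumors in 36.2% of cases, against 46.0% with quantile normalization and 49.3% with voom, where the all-gene median moved from 0.08 to -0.11 and -0.15, and 22.9% with the block.

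Between the lung tumors 9 genes passed a 2-fold limit in either direction. Over all genes tested, 15.5% passed it higher and 31.6% lower in lung tumor 1. A 4-fold limit was passed by 5, a share not computed over all genes. Per 1000000 human reads, chosen after seeing the data, 1 gene in place of 8 was higher in lung tumor 1. On that scale 5 in place of 10 lay below both lung tumors in each brain tumor, Chil3 and Nos2 only narrowly. The log2 ratio of lung tumor 1 to lung tumor 2 then turned negative for 7 genes, to -1.56 for Arg1, -3.49 for Nos2, -3.00 for Msr1, -3.42 for Mrc1, -3.47 for Plac8, -1.35 for Cd163 and -1.99 for Lgals3, since few mouse reads were found beside the human reads of lung tumor 1. Relative to the pan-macrophage mean 4 genes passed, 2 to 5 when leaving out each library, 6 when scaled to Csf1r, Adgre1 and Cd68, and 5 with the block, with p-values that are not read as calls. The depth of lung tumor 1 limits Pparg and Chil3, on 2 and 12 reads, and genes listed at 0 there.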

Other observations

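Genes that differed most between the lung tumors, named after their values were seen, included skeletal muscle and metallothionein genes beside Marco and Pf4. Acta1, the skeletal muscle actin gene, had 405.9 RPKM in lung tumor 1, 0.258 RPKM in lung tumor 2 and 2.85 to 4.03 RPKM in the brain tumors. The troponin genes Tnnt3 and Tnni2 had 388.4 and 505.8 RPKM in lung tumor 1, and 2.32 and 3.43 RPKM in lung tumor 2. Mt2, a metal-binding stress protein gene, had 9021 RPKM in lung tumor 1, 57.9 RPKM in lung tumor 2 and 1462 to 2201 RPKM in the brain tumors. Hmox1, which breaks down heme and which Cd163-positive macrophages are known to express, had 5541 RPKM in lung tumor 1, 85.1 RPKM in lung tumor 2 and 60.6 to 531.9 RPKM in the brain tumors.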
